A study of Mus musculus with 8 samples.

Results

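The loci described here are rows of the gene count tables that carry the name of a microRNA (miRNA), of the host transcript of a miRNA, or of a small nucleolar RNA (snoRNA), and that were given reads by long-read nanopore sequencing of polyadenylated RNA. They were taken by symbol (Mir followed by a digit, Snora or Snord) and by a summed count of at least 10 reads over the 8 libraries. Of 24421 genes in the tables, 1279 had such a symbol and 23 of these reached the minimum. The members were thus chosen by their read counts, and levels and ranks below are given as a description. By name the 23 members were 16 miRNA loci of 1163, 3 miRNA host transcripts (symbols ending in hg) of 6, and 4 C/D box snoRNAs (Snord) of 74, while none of the 36 H/ACA box snoRNAs (Snora) reached the minimum.

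The libraries came from R1, a mouse embryonic stem (ES) cell line, in 2 states with 2 replicates each, and the study compared the states and the sequencing kits. Undiff cells were, by the methods, ES cells kept in medium with leukaemia inhibitory factor, although the labels name embryoid bodies as the tissue of every sample. Day4 cells were embryoid bodies made without that factor and treated with retinoic acid for 4 days (2 µM in the design text and methods, while the treatment label writes mM). RNA of each state was sequenced with the Direct RNA kit, which reads native RNA strands from 500 ng of poly(A) RNA, and with the cDNA-PCR kit, which reads amplified cDNA from 50 ng, so that 4 groups of 2 libraries resulted. No allele or transgene separates the groups, and all of them share the single line as their source.

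A miRNA is cut from a hairpin within a longer primary transcript by Drosha and then Dicer, and the mature strand guides Argonaute to target RNAs, mostly through the bases of its seed. C/D box snoRNAs guide ribose methylation of ribosomal and other RNAs, and in mammals most are released from introns of host genes by splicing and trimming. Neither mature product carries a poly(A) tail. A read counted on such a locus in poly(A) libraries can stem from a primary or host transcript, from another transcript that overlaps the locus, or from a near-identical copy elsewhere, and the counts alone do not separate these sources.

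Reads on genes ranged from 283461 to 907489 in the Direct RNA libraries and from 948657 to 2088592 in the cDNA libraries. A count of 3 reads, the limit used here for a count of 0, corresponded to a level from 1.44 to 10.6 CPM, with CPM scaled to 1000000 reads on genes. The states could be told by their markers. The summed level of 8 ES cell markers was 11482 to 24601 CPM in Undiff libraries and 84.2 to 944 CPM in Day4 libraries, with no marker at 0 throughout. The 5 endoderm markers summed to at most 5.74 CPM in Undiff and to at least 181 CPM in Day4, and 5 mesenchyme markers to at most 195 and at least 602 CPM. The 6 neural markers lay between 83.3 and 187 CPM in Undiff and between 42.4 and 85.4 CPM in Day4. In such bulk samples, fewer cells of a type and less RNA per cell cannot be told apart.

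Sequences of the members with the most reads, or with a change between states or kits, are shown first because the results turn on them. The RefSeq hairpin of Mir682 (build GRCm38.p6, chr13:75645046-75645141, plus strand) is set beside positions 182 to 277 of the Rpl37a-201 transcript (GENCODE vM21), which lie inside its coding part at positions 32 to 310. Both are written 5′ to 3′ in DNA letters, and the capital marks the 1 base that differs, C48T counted from the 5′ end of the hairpin.
Mir682 hairpin: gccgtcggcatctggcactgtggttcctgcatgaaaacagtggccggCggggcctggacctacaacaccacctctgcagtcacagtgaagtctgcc
Rpl37a stretch: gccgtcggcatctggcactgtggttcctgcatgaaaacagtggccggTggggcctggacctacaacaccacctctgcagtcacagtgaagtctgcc

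Mature strands of 6 of the miRNA members follow, from RefSeq, with the seed (bases 2 to 8) in capitals. They are the strand of the member with the most reads, those of both miRNA members called between states, that of Mir301 with most of its reads in Day4, that of Mir703, whose hairpin resembles Eef1a1, and that of Mir6236, which had reads in Direct RNA alone.
miR-682: cUGCAGUCacagugaagucug
miR-219a-5p: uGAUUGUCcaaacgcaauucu
miR-6516-5p: uUUGCAGUaacagguguggaca
miR-6516-3p: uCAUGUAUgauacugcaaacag
miR-301a-3p: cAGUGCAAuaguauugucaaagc
miR-703: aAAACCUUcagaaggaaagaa
miR-6236: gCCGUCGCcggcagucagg
The 19 mature strands that were matched, from 13 of the 16 miRNA members (all but Mir684-1, Mir7666 and Mir1949), carried 19 distinct seeds.

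The snoRNA members Snord104 and Snord52, those with the most reads, are shown from GENCODE vM21, with the C box motif TGATGA in the first 20 bases and the D box motif CTGA in the last 20 bases in capitals.
Snord104: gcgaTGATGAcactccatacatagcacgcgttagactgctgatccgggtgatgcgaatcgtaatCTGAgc
Snord52: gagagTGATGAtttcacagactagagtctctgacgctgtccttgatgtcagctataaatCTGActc
Searched on the transcript strand, TGATGA started in that window in 71.4% and CTGA lay in that window in 98.0% of the 98 Snord transcripts of the annotation, and the 4 members held both.

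Most loci with such names had no reads at all. Of the 1279 rows, 1154 (90.2%) had 0 reads in all libraries and 102 had between 1 and 9. By class the share at 0 was 92.9% for miRNA loci, 70.3% for C/D box snoRNAs and 55.6% for H/ACA box snoRNAs. Just inside the minimum lay Mir22hg, Snord8 and Mir708 with 10 reads each and Mir670 with 11. Just outside it lay the H/ACA box snoRNAs Snora74a and Snora75 with 8 reads each and Mir296 with 7.

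Hairpins of miRNAs known from ES cells and early lineages had few reads. Of 14 measured loci of the ES cell miRNA clusters, which mark the pluripotent state, 1 had a read, with 2 reads in all. Of 15 measured loci of the Mir17-92 family, which is linked to proliferation, 2 had reads, with 5 in all. The 6 miRNAs of the Hox clusters had 1 read, the 15 measured mesoderm, endothelial and smooth muscle miRNAs 7 reads, the 40 measured loci of the imprinted Dlk1-Dio3 region 1 read, and Mir675 of the H19 transcript none. Among 11 measured neural miRNAs, 98 reads were counted, and 97 of these fell on Mir219a-2, the single locus of these lists that is a member.

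**Figure D1:**
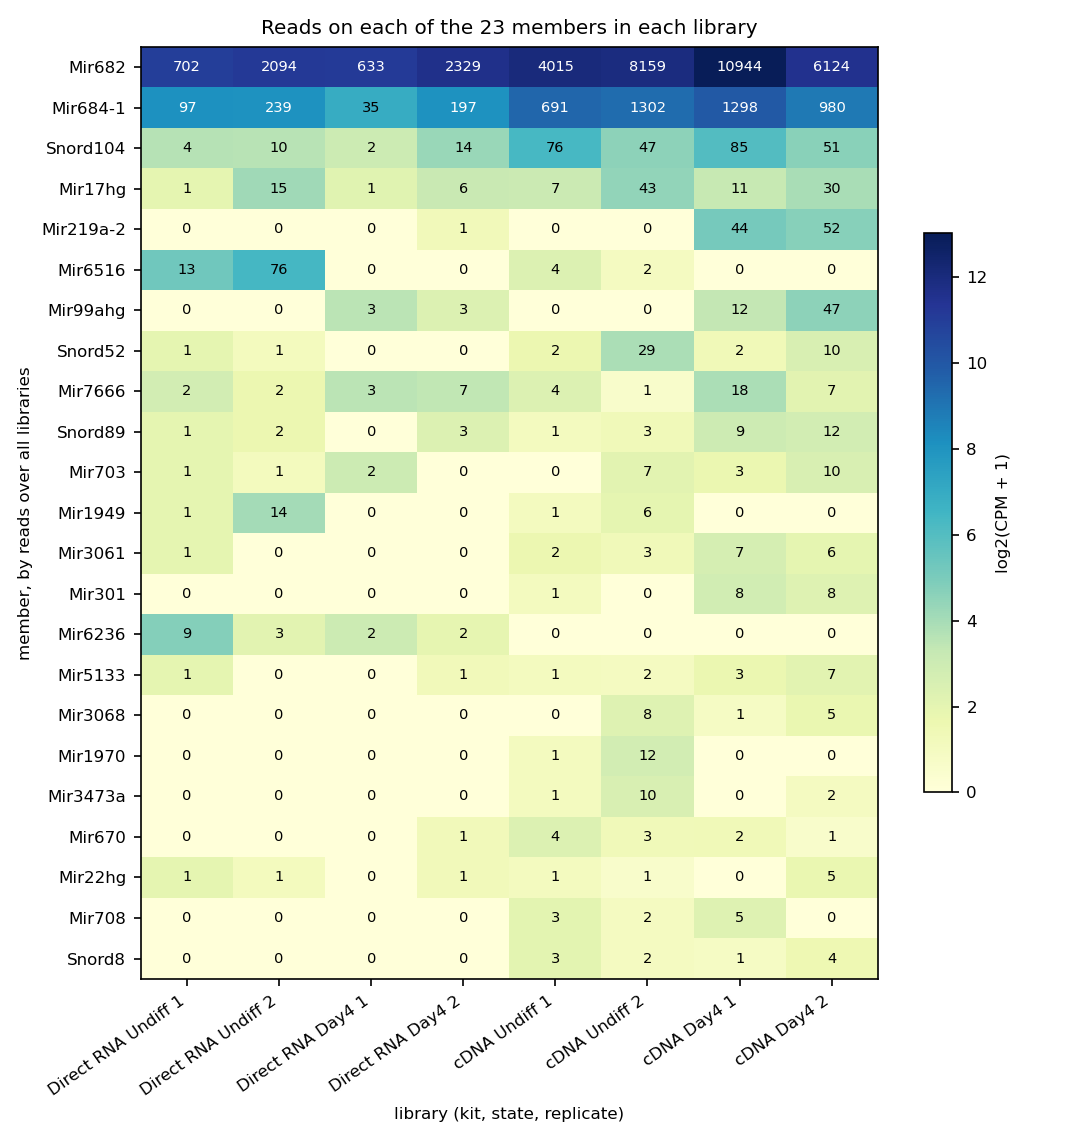
Reads on each of the 23 members (rows, by total reads) in each of the 8 libraries (columns). Numbers are raw reads and colour is log2(CPM + 1). Mir682 and Mir684-1 had reads in every library, whereas Mir6516 and Mir1949 had none in Day4 and Mir219a-2 and Mir99ahg none in Undiff.

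The members took up 40813 reads, and Mir682 alone held 35000 of them (85.8%). Mir684-1 followed with 4839 reads (11.9%), Snord104 with 289, Mir17hg with 114, Mir219a-2 with 97, Mir6516 with 95, Mir99ahg with 65, Snord52 with 45, Mir7666 with 44 and Snord89 with 31. The remaining 13 members had between 10 and 24 reads each. Mir682 held between 83.2% and 93.0% of the member reads in every library, so that any sum over the members is in the main a sum over that locus.

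As a share of all reads on genes, the members made up 0.255% ± 0.0221 (SD, n = 2) of Undiff and 0.294% ± 0.0760 of Day4 with the Direct RNA kit. With the cDNA kit they made up 0.485% ± 0.0327 of Undiff and 0.650% ± 0.417 of Day4. The last group is uneven. Its replicate 1 had 0.945% (95% Wilson interval 0.928 to 0.961) and its replicate 2 had 0.354% (0.346 to 0.363), and these intervals cover counting error only. Without Mir682 the share was 0.0391% ± 0.00137, 0.0245% ± 0.0107, 0.0778% ± 0.00965 and 0.0870% ± 0.0388 in the same order. In the plot of shares, whose denominator is reads on genes, every cDNA library lies above every Direct RNA library, by 0.354% to 0.348% at the closest for all members and by 0.0595% to 0.0401% without Mir682. Taken over all reads in the file, the kits overlapped for all members, with 0.177% in cDNA Undiff replicate 2 and 0.201% in Direct RNA Day4 replicate 2. Without Mir682 they did not overlap, at 0.0272% and 0.0230% for the closest libraries. This denominator is not alike between files. Reads not aligned made up 29.1% of the file of cDNA Undiff replicate 2 and 7.35% of that of Direct RNA Day4 replicate 2. The files of replicate 1 of cDNA Undiff and cDNA Day4 held 0 such reads.

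**Figure D2:**
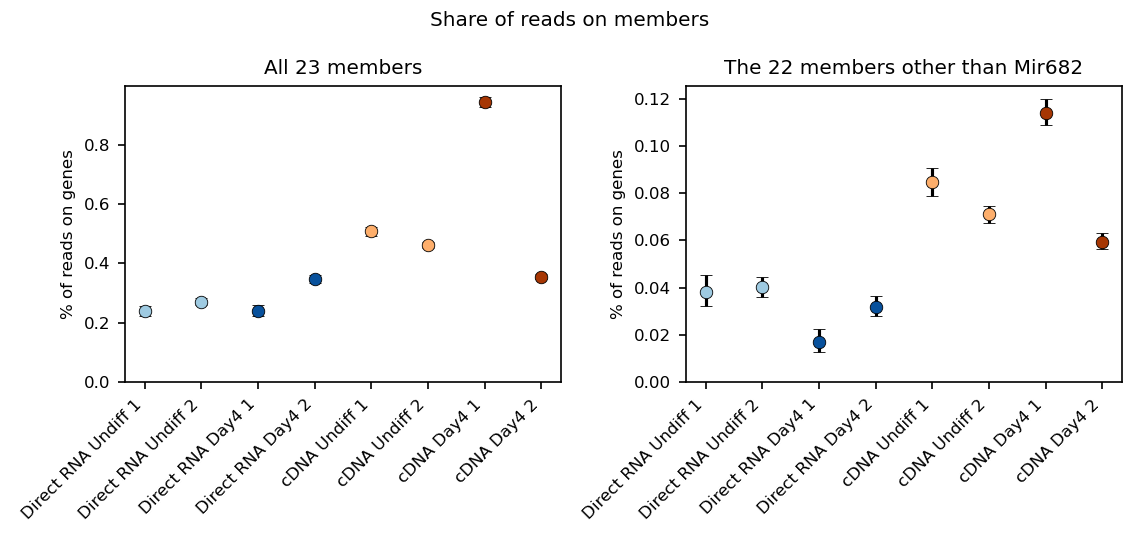
Share of reads on genes (percent) taken by all 23 members (left) and by the 22 members other than Mir682 (right), by library, with 95% Wilson intervals that cover counting error only. cDNA Day4 replicate 1 stands apart on the left, at 0.945%.

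Members with more than 1 read numbered 6 to 9 in the Direct RNA libraries and 11 to 17 in the cDNA libraries. The kits differed in depth as well. At the number of reads on genes of the smallest library, 283461, the expected number was 5.36 to 7 in Direct RNA and 5.31 to 8.65 in cDNA libraries, so that the ranges overlapped. Only that number was equalised, and not read length or the share of reads left unassigned.

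The position of the loci was a property that the choice of members did not use. The 20 members that are not host transcripts were 55 to 123 bases long, with a median of 92.5. Of these, 8 overlapped an exon of another GENCODE gene on their own strand, 6 lay in an intron of a gene on their own strand, 3 lay in an intron of a gene on the opposite strand and 3 lay outside longer GENCODE genes. Thus 40.0% of these members overlapped a same-strand exon, beside 24.0% of all 1269 matched loci, while 6 of the 20 lay in a same-strand intron, beside 48.2% of all matched loci. Opposite-strand introns held 15.0% of these members and 5.91% of all matched loci, and places outside longer genes held 15.0% and 19.2%. These shares are a description without a test.

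**Figure D3:**
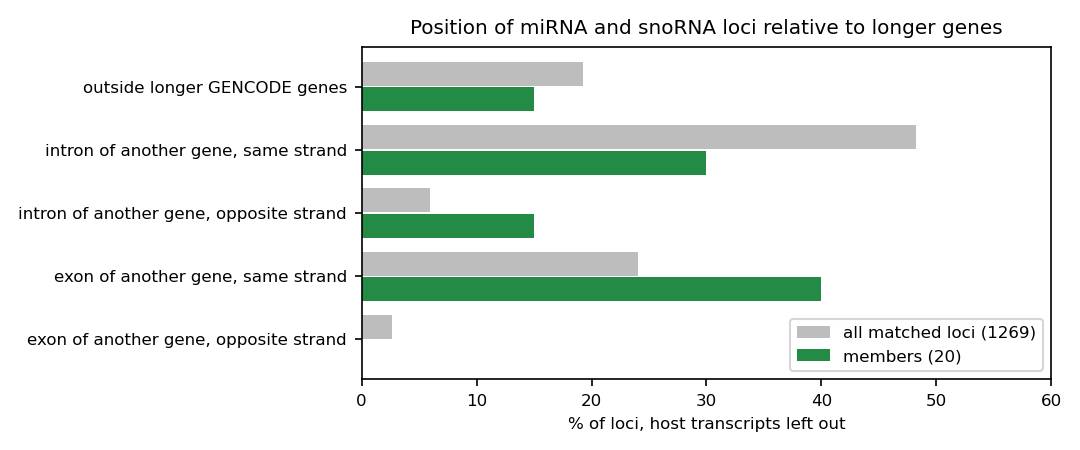
Position of loci relative to longer GENCODE genes. Bars give the percent of all 1269 matched miRNA and snoRNA loci (grey) and of the 20 members that are not host transcripts (green) in each class. Same-strand exons hold 40.0% of these members and 24.0% of all matched loci.

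The member with the most reads lies within sequence that closely resembles a protein-coding gene elsewhere in the genome. Mir682 sits inside Gm4149, a processed pseudogene whose transcript was 99.6% identical to that of Rpl37a, a protein of the large ribosomal subunit, over 276 bases. The hairpin itself was 99.0% identical to Rpl37a over its 96 bases, as the sequences above show, and 24 GENCODE genes held a copy of it at 90% identity or more over at least 90% of its length. Mir684-1 (chr2:80628705-80628790, minus strand) lies in introns of Dusp19 and Nup35 on the opposite strand and within the RefSeq span of the pseudogene Gm13690. The GENCODE transcript of Gm13690, which does not overlap Mir684-1, was 99.3% identical over 285 bases to that of Sumo2, a small ubiquitin-like modifier. The likeness of the Mir684-1 locus itself to Sumo2 was not measured. Neither pseudogene had a row in the count tables.

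Such a likeness was rare. Among hairpins in the tables for which a sequence was matched, 9 resembled a coding transcript of a gene elsewhere at that limit and 958 did not. The 9 included 2 members, Mir682 and Mir703, and the 958 included 10. Mir703 (chr5:98475556-98475664, minus strand), in an intron of Cfap299 on the opposite strand, was 98.2% identical over 109 bases to Eef1a1, which encodes a translation elongation factor. Mir703 had 4 reads in Direct RNA and 20 in cDNA, beside 42256 and 46958 on Eef1a1. Values for Mir682 and Mir703 are uncertain, because reads of a near-identical gene can be placed on either copy. In each library between 18.5% and 28.0% of the reads had been set aside by the counting for low mapping quality.

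With Direct RNA, Mir682 had 702 and 2094 reads in Undiff (2015 and 2307 CPM) and 633 and 2329 in Day4 (2233 and 3158 CPM). With cDNA it had 4015 and 8159 reads in Undiff (4232 and 3906 CPM) and 10944 and 6124 in Day4 (8302 and 2948 CPM). The Direct RNA libraries lay between 2015 and 3158 CPM, and the cDNA Day4 replicates lay on either side of both cDNA Undiff libraries. In the same order of libraries Rpl37a had 385 and 366, 526 and 473, 829 and 659, and 1072 and 598 CPM. Both rows were highest in cDNA Day4 replicate 1, followed by replicates 1 and 2 of cDNA Undiff. Mir682 held 85.7% of the reads of the pair in Direct RNA and 85.9% in cDNA, and between 80.9% and 88.6% in the single libraries, so that the row named for the miRNA had 4.25 to 7.75 reads for each read on Rpl37a.

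With Direct RNA, Mir684-1 had 278 and 263 CPM in Undiff and 123 and 267 in Day4. With cDNA it had 728 and 623 CPM in Undiff and 985 and 472 in Day4. Sumo2 had no reads in the 4 Direct RNA libraries and 12, 5, 5 and 7 reads in the cDNA libraries. Mir684-1 therefore held all 568 reads of the pair in Direct RNA and 99.3% of them in cDNA. The plot of both pairs shows that the member row held most of the reads in each.

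**Figure D4:**
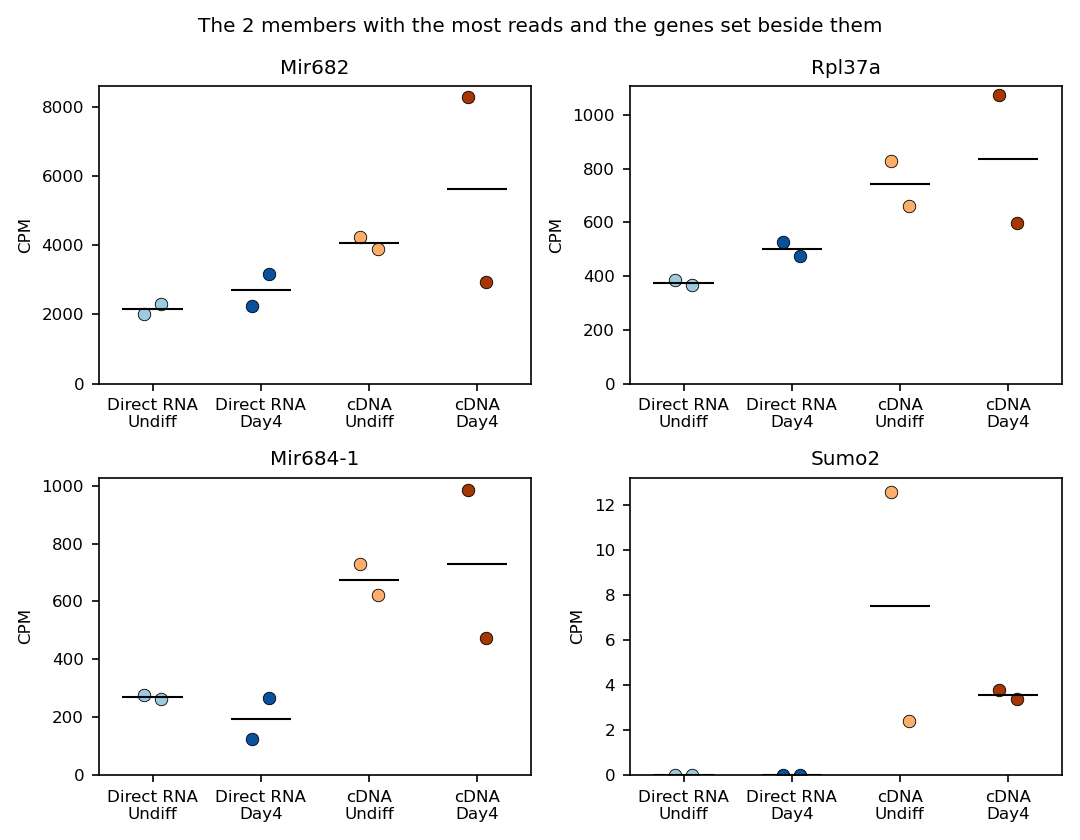
Level (CPM, linear axes that differ between panels) of Mir682 and Rpl37a and of Mir684-1 and Sumo2 in the 4 groups. Points are libraries and lines are group means (n = 2). Mir682 and Rpl37a were both highest in cDNA Day4 replicate 1, and Sumo2 had 0 reads in Direct RNA.

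For the states, changes were called with the study's criteria in DESeq2 (adjusted p of 0.05 or less over all genes, an absolute shrunken log2 fold change of 1 or more, and a normalised count of 5 or more on average). In Direct RNA 4 members reached that mean count and 1 of them, Mir6516, was called, lower in Day4. Over the 9646 genes with that mean count, 7.67% were called lower and 9.54% higher. In cDNA 9 members reached it and 2, Mir219a-2 and Mir99ahg, were called, both higher in Day4. Over 10271 genes, 8.69% were called higher and 9.24% lower. A member whose reads lie in 1 group passed the minimum through that group, so these counts of members are not evidence about miRNA loci at large.

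Mir6516 (chr11:117077348-117077457, plus strand) overlaps an exon of Snhg20, a long noncoding snoRNA host gene, and shares its place with the small Cajal body RNA gene Gm26083. It had 13 and 76 reads in Direct RNA Undiff and 0 and 0 in Direct RNA Day4, which is 37.3 and 83.7 CPM against none, and the groups did not overlap. Against the limit that 3 reads per library allow, its mean level was at least 8.2-fold lower in Day4 (5 to 14 with any 1 of these libraries left out, lowest without Undiff replicate 2 and highest without Day4 replicate 1), and the fitted change was -5.61 on the log2 scale (SE 1.18, DESeq2 adjusted p = 6.59e-05). In cDNA it had 4 and 2 reads in Undiff and 0 and 0 in Day4, at a mean count below the minimum. Snhg20 itself had 8 and 15 reads in Direct RNA Undiff and 2 and 11 in Direct RNA Day4, and its fitted change was -0.74 ± 0.98 (SE) on the log2 scale (adjusted p = 0.838). The call of Mir6516 was lost without Undiff replicate 2, the library with most of its reads (log2 fold change -4.12). It was also lost with a replicate block, which treats equal replicate numbers as pairs (-1.46, DESeq2 adjusted p = 0.894).

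Mir219a-2 (chr2:29845631-29845727, minus strand) encodes miR-219a, which is known from oligodendrocyte differentiation in the nervous system. It lies within the RefSeq span of Cercam, an adhesion-related gene, and Mir219b lies on the opposite strand at the same place and had 0 reads. Mir219a-2 had no reads in cDNA Undiff and 44 and 52 in cDNA Day4, that is 33.4 and 25.0 CPM, and the groups did not overlap. Its mean level was at least 12-fold higher in Day4 against the limit of 3 reads per library (9.2 to 20 with any 1 library left out, highest without Undiff replicate 1), and the fitted log2 fold change was 5.85 (SE 1.22, DESeq2 adjusted p = 5.28e-05). The call was lost with a replicate block, which treats equal replicate numbers as pairs (log2 fold change 1.72, DESeq2 adjusted p = 0.74). In Direct RNA 1 read was counted in all, in Day4 replicate 2. Cercam had 52.7 and 13.4 CPM in cDNA Undiff and 34.1 and 33.2 in cDNA Day4, and its fitted log2 change was -0.29 ± 0.67 (SE), with an adjusted p of 0.921. The methods name strand-specific gene counting for Direct RNA alone, so in cDNA reads of overlapping genes on opposite strands may not have been separated. The neural marker list, whose 6 genes each had reads in some library, summed to 83.3 to 183 CPM in Undiff and 42.4 to 47.8 CPM in Day4 of this kit.

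Mir99ahg (chr16:77329328-77558428, plus strand) is the long host transcript of a cluster with miR-99a, let-7c and miR-125b. It had 0 reads in the Undiff libraries of both kits, 3 and 3 reads in Direct RNA Day4, and 12 and 47 in cDNA Day4. In cDNA the Day4 levels were 9.10 and 22.6 CPM, at least 6.8-fold above the limit for Undiff on average (3.9 to 11 with any 1 library left out, lowest without Day4 replicate 2 and highest without Undiff replicate 1), and the log2 fold change was 4.92 (SE 1.30, DESeq2 adjusted p = 0.00269). In Direct RNA the fold change was 2.32 (SE 1.45, adjusted p = 0.401) at a mean count of 1.75, below the minimum. Reads thus appeared in all 4 Day4 libraries and in none of the 4 Undiff libraries. The call was lost without cDNA Undiff replicate 2 (log2 fold change 3.74) or without cDNA Day4 replicate 2 (3.23), in fits that leave 1 library in a group.

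**Figure D5:**
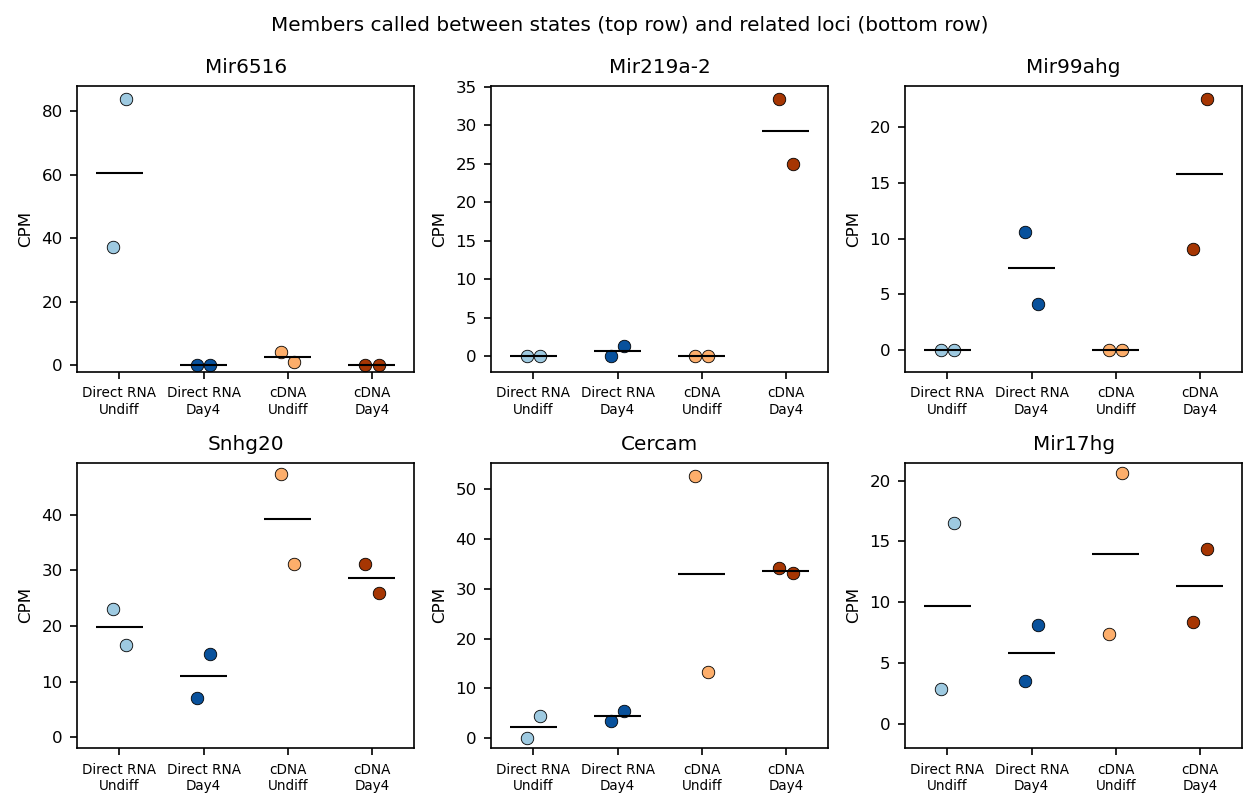
Level (CPM) of the 3 members called between states (Mir6516, Mir219a-2 and Mir99ahg, top) and of Snhg20, Cercam and Mir17hg (bottom). Points are libraries and lines are group means (n = 2). Mir6516 was seen mainly in Direct RNA Undiff, Mir219a-2 almost wholly in cDNA Day4, and Mir99ahg in Day4 of both kits.

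The other members with enough reads did not pass the test between states. For Mir682 the log2 fold change was 0.21 ± 0.27 (SE) with Direct RNA (adjusted p = 0.816) and 0.19 ± 0.49 with cDNA (adjusted p = 0.926). For Mir684-1 it was -0.53 ± 0.41 (adjusted p = 0.568) and -0.18 ± 0.45 (adjusted p = 0.926). For Snord104 it was 0.15 ± 1.06 (adjusted p = 0.965) and -0.48 ± 0.67 (adjusted p = 0.858). A missed threshold does not show that these levels were alike. Mir17hg, the host transcript of the Mir17-92 cluster, had 1 and 15 reads with Direct RNA in Undiff and 1 and 6 in Day4, and 7 and 43 with cDNA in Undiff and 11 and 30 in Day4. Its 2 states overlapped in both kits, and its fitted log2 change with cDNA was -0.60 ± 0.79 (SE), with an adjusted p of 0.839. For each of these 4 members, 2 standard errors to either side of the estimate take in a change of more than 1 log2 unit in at least 1 kit. Within the Mir17hg span of RefSeq, the measured hairpins Mir19b-1 and Mir92-1 had 0 reads, and Mir22 within Mir22hg had 0 as well. Mir17, of the same family but not within that span, had 4 reads.

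Between kits, compared over the 8 libraries with the state as a term of the fit, 7 members reached the mean count and 4 were called: Mir682, Mir684-1 and Snord104 were higher in cDNA and Mir6516 was lower. Of 10426 genes with that mean count, 24.7% were called higher and 26.6% lower in cDNA. The direction of a kit difference depends on the scaling, as the median gene had a log2 fold change of -0.02 with DESeq2's size factors and of -0.77 when counts were scaled by total reads, where 1132 genes were higher and 4394 lower in place of 2572 and 2772.

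The log2 fold change of cDNA over Direct RNA was 1.74 for Mir682 (SE 0.34, DESeq2 adjusted p = 1.82e-06), beside 1.63 for Rpl37a (SE 0.28, adjusted p = 4.61e-08). Scaled by total reads, Mir682 had 0.97 and fell short of the fold limit (adjusted p = 0.00307), and in CPM the lowest cDNA library, 2948, lay below the highest Direct RNA library, 3158. Mir684-1 had 2.33 (SE 0.34, adjusted p = 8.09e-11) with size factors and 1.57 with total reads. Its cDNA libraries, at 472 to 985 CPM, lay above all Direct RNA libraries, at 123 to 278 CPM. Snord104 had 2.56 (SE 0.57, adjusted p = 4.02e-05) and 1.82 by the same pair of scalings.

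Snord104 (chr11:106500991-106501063, plus strand) is a C/D box snoRNA that lies outside longer GENCODE genes and within the RefSeq span of the lncRNA Gm36220. It had 4 and 10 reads with Direct RNA in Undiff and 2 and 14 in Day4, and 76 and 47 with cDNA in Undiff and 85 and 51 in Day4. In CPM the cDNA libraries, from 22.5 to 80.1, lay above all Direct RNA libraries, from 7.06 to 19.

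Mir6516 went the other way, with a log2 fold change of -2.98 (SE 0.81, DESeq2 adjusted p = 0.00102) and 6.32% of its reads in cDNA. Snhg20, whose exon it overlaps, was higher in cDNA (1.83, SE 0.41, adjusted p = 5.83e-05). In the pair, Mir6516 held 71.2% of the reads in Direct RNA and 2.84% in cDNA. The kit call rested on Direct RNA Undiff replicate 2, since without that library the fold change was -1.87 (adjusted p = 0.191). Mir1949, which lies in the RefSeq span of Snhg4 and whose symbol GENCODE also gives to a snoRNA gene, had a like pattern at fewer reads. It had 1 and 14 in Direct RNA Undiff, 1 and 6 in cDNA Undiff, and 0 in all Day4 libraries. Its mean count stayed below the minimum in every fit. In the pair with Snhg4 it held 20.8% of the reads in Direct RNA and 1.75% in cDNA.

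Mir6236 (chr9:110281287-110281409, plus strand) was the member with reads in Direct RNA alone. It had 9, 3, 2 and 2 reads in the 4 Direct RNA libraries and 0 in the cDNA libraries. The mean Direct RNA level, 9.73 CPM, was more than 4.6 times the mean limit of 3 reads per library in cDNA, 2.08 CPM. Without Direct RNA Undiff replicate 1, which held 9 of the 16 reads, it was more than 2 times that limit. These ratios take the Direct RNA mean as exact, although most of its libraries had 3 reads or fewer, and so set no lower limit on the fold. The mean count of Mir6236, 3.26, was below the minimum, so this member was not called. A further 6 members had reads in cDNA alone, namely Mir301, Mir3068, Mir1970, Mir3473a, Mir708 and Snord8, with 10 to 17 reads each, and Direct RNA had fewer reads on genes in total.

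No member was called for a change between states that differed between kits. In DESeq2 2 of 17267 genes (0.0116%) were called for this interaction, and edgeR's quasi-likelihood test called 14 genes, again with no member. At an unadjusted p of at most 0.05 there was 1 member in DESeq2, Mir219a-2, and none in edgeR. The state changes of Mir6516 and Mir219a-2, each called in 1 kit, are therefore not shown to differ between kits.

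The remaining members had few reads, and their values are given in ranges. Mir301, in an intron of Ska2, had 1 and 0 reads in cDNA Undiff and 8 and 8 in cDNA Day4, while Ska2 had 61 and 82 and then 84 and 204. Mir301 encodes miR-301a, whose seed belongs to the miR-130 family, and its fitted log2 change in cDNA was 2.22 ± 1.39 (SE, adjusted p = 0.397). Snord89 had 1 and 3 reads in cDNA Undiff and 9 and 12 in cDNA Day4, and a fitted log2 change of 1.62 ± 1.21 (adjusted p = 0.537). Mir7666 lies in an intron of Fgf20 and opposite an exon of Micu3 in GENCODE, but in RefSeq it lies within the span of Micu3 alone. It had 9 reads in Undiff and 35 in Day4 over both kits, and a fitted log2 change in cDNA of 1.39 ± 1.16 (adjusted p = 0.612). None of these 3 was called by DESeq2 or edgeR. In edgeR's quasi-likelihood test Mir301 had a log2 change of 3.29 in cDNA (adjusted p = 0.0475), but its mean count was below the minimum.

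Some members had most of their reads in 1 cDNA library. In cDNA Undiff replicate 2, Snord52 had 29 of its 45 reads, Mir1970 had 12 of 13 and Mir3473a had 10 of 13. Snord52, a C/D box snoRNA in an exon of 1110038B12Rik, had a fitted log2 change of -1.44 ± 1.09 (SE) between states in cDNA (DESeq2 adjusted p = 0.544), and edgeR called it lower in Day4. Its host row had 369, 246, 330 and 259 CPM in the 4 cDNA libraries. Mir3061 had 19 reads and lies in a GENCODE exon of Ppp2ca, a phosphatase catalytic subunit, but outside the RefSeq span of that gene. Mir5133 in an exon of Glce had 15, Mir3068 within Alkbh1 had 14 and Mir670 in an exon of its host Mir670hg had 11. Mir708 in an intron of Tenm4, Snord8 in an intron of Chd8 and Mir22hg had 10 each.

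For members inside another gene on the same strand, the member and its host were set side by side in the same fits, without a test. Between states the fold changes had the same sign in 5 of 6 pairs in Direct RNA and in 4 of 11 pairs in cDNA, and between kits in 4 of 11. Most members of these pairs had a mean count below 5, so that their signs carry little weight. Fgf20, paired with Mir7666 by GENCODE, itself had 1 read in Direct RNA and 3 in cDNA. Mir3061 had 1 read beside 1017 on Ppp2ca in Direct RNA and 18 beside 363 in cDNA.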

How the data were processed

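Poly(A) RNA of R1 cells was sequenced with the Direct RNA and cDNA-PCR nanopore kits, and the deposited files hold raw read counts per gene, which the authors made by aligning reads to mm10 with minimap2 (spliced, no secondary alignments) and counting with HTSeq on a UCSC annotation. Direct RNA was counted by strand. For cDNA the methods name no strand setting at the gene level and counted exons without strand. The overlap mode is not given in the sources used here. Counters of reads given to no gene were left out of library sizes (8.84% to 15.8% of the reads in a file had no feature, 1.21% to 5.04% were ambiguous, 18.5% to 28.0% had low mapping quality and up to 29.1% were not aligned). The members, gene lists and tests were chosen with earlier results of these data known. States were compared within each kit, and kits over all 8 libraries, with DESeq2 1.42.0 in R 4.3.3 (shrunken fold changes, no Cook's or independent filtering, Benjamini-Hochberg adjustment over all genes). Alternatives were edgeR 4.0.16 (quasi-likelihood), other scalings, a minimum of 10 reads, a replicate block and each library left out, and fits were tested on simulated data. Named members followed a rule (most reads, called members, fixed lists, hosts, threshold), and the others are named so that all 23 are accounted for. Positions came from RefSeq and GENCODE vM21, where all 23 symbols matched, and likeness from blastn 2.17.0. Replicates were grown and treated separately, and a check for 1 library deposited as 2 found none (chi-square per degree of freedom of the counts of a pair, 2.68 to 14.9).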

Additional observations from a re-analysis of the deposited data

How the results depend on the processing

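With 2 replicates a group, calls depend on single libraries, and a member at a few reads can be called or not by 1 of them. A state fit with a library left out has 1 library in that group. Its spread comes from the other group alone, and calls over all genes fell as well. In Direct RNA the number of members called between states was 1, and it was 0 with a replicate block (Mir6516, log2 fold change -1.46, adjusted p = 0.894) and 0 to 1 when single libraries were left out. In cDNA it was 2, and it was 1 with a replicate block (Mir99ahg remained and Mir219a-2 had 1.72, adjusted p = 0.74) and 1 to 2 when single libraries were left out. Between kits it was 4, 4 with the replicate block, 7 with edgeR (Mir17hg, Mir219a-2 and Mir99ahg added) and 3 when scaled by total reads, an alternative chosen after seeing the data. The replicate numbers are not stated to pair cultures, so the main fits hold no block. Over 1395 genes, differences between replicates correlated between states at 0.214 in Direct RNA and 0.5 in cDNA. Between kits they correlated at 0.124 in Undiff and -0.416 in Day4. With 2 replicate numbers, these values do not settle whether a block is needed.

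Over all genes, calls were 1660 in Direct RNA, against 3267 by edgeR, 843 with the block and 393 to 797 with a library left out. In cDNA they were 1842, against 3355 by edgeR and 709 to 1020 with a library left out, and scaling by total reads gave 1263 higher and 655 lower in place of 893 and 949. The interaction gave 2 calls, 14 by edgeR, 1 by total reads or TMM factors, and 0 to 13 with a library left out. Among values that did not pass the test, the sign turned for Mir684-1 in cDNA (0.10 by total reads) and, with a library left out, for Mir682 in Direct RNA (-0.07 to 0.51) and cDNA (-0.82 to 0.83), Mir684-1 in cDNA (-0.87 to 0.35), Snord104 in Direct RNA (-0.50 to 0.54) and cDNA (-1.31 to 0.65) and Mir17hg in Direct RNA (-1.19 to 0.46) and cDNA (-1.09 to 0.16).

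With all reads of the file as denominator the member share was 0.143% and 0.175% in Undiff and Day4 of Direct RNA. In Undiff and Day4 of cDNA it was 0.220% and 0.363%. The files differ in how many reads not aligned they hold, so this denominator is not alike between libraries. With reads on genes as denominator but without Mir682 the share was 0.0391%, 0.0245%, 0.0778% and, in cDNA Day4, 0.0870%. The mean number of members seen per library, 7.50 in Direct RNA and 15.0 in cDNA, was 11.5 and 18.0 at 1 read, 4.25 and 10 at 5 reads, and 6.06 and 7.33 at an equal number of reads on genes. A minimum sum of 5 gave 38 members and one of 20 gave 12. Kept to introns on the host's strand, 1 of 1 pair in Direct RNA and 1 of 6 in cDNA had the same sign, and 3 of 6 between kits. The Direct RNA pair was Mir7666 and Fgf20, and Fgf20 had 1 read in that kit. The causes of these changes were not tested.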
